A study of Mus musculus with 105 samples.

Results

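Gm9805, a predicted mouse gene without a functional name, was the 1 gene chosen by a rule meant to collect unnamed genes that a Suz12 knockout turns on. The rule took symbols made of Gm and a number, or ending in Rik, with a mean of at least 1 CPM (the count scaled by the library total) in the knockout and at least 8 times the wild-type mean after 0.05 CPM had been added to it. Of 53656 symbols in the count table, 5309 were of the Gm or Rik kind, 69 of those reached 1 CPM in the knockout, and 1 passed. A plural label for the group is therefore not borne out by this table, in which 24677 other unnamed genes carry the name of a genomic clone. Another 256 symbols that were neither Gm nor Rik passed the same numbers, 34 of them named by clone. Of symbols at 1 CPM or more in the knockout, 1.45% passed among Gm and Rik, 3.43% among clone-named and 1.81% among all others. A lower share of the Gm and Rik class cannot be read from 1 symbol.

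Messenger RNA from mouse embryonic stem cells was sequenced, and 42 of the study's 105 libraries, in 14 groups of 3, came in tables that list Gm9805. All 14 groups were grown from E14TG2a, a mouse embryonic stem cell line, in serum with LIF, the cytokine that keeps such cells undifferentiated. In the fusion panel, wild-type cells and Suz12 knockout cells stood beside 6 lines that add a transgene to the knockout: SUZ12 itself, S12N (SUZ12 without its VEFS domain), S12N:SUV2, S12N:SD2, and forms of both fusions that the titles call dead, marked here with an asterisk. In the second dataset the line R carried RBBP5 tagged with FKBP, RS was R with a Suz12 knockout, and the last line was RS with S12N:SUV2. Each of these 3 lines received dTAG13, which degrades an FKBP-tagged protein, or DMSO for 24 h, and the labels in use here give no dose. Every genotype stood as its own line, so the effect of a construct cannot be told apart from differences between lines.

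SUZ12 is a core subunit of PRC2, the Polycomb complex whose mark on lysine K27 of histone H3 keeps many developmental genes silent in embryonic stem cells. Its VEFS domain holds the catalytic subunit in the complex. RBBP5 belongs to the core of the COMPASS complexes, which methylate histone H3 at lysine K4 at promoters. No role of Gm9805 is known from the tables used here.

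RefSeq lists Gm9805 as protein coding on GRCm38.p6 at chromosome 17, from 22674307 to 22691490. The match was made by symbol, and the annotation behind the deposited counts is not given in the sources used here. GENCODE M21 has no gene of that name, and the 1 gene it places over the interval is AC098880.1, a processed pseudogene on the plus strand from 22687720 to 22690460. Reads of both annotated features could not be separated, since the library kit does not mark strand and AC098880.1 has no row of its own in the count table. Gm9805 has no entry in the promoter table, so no sequence is shown.

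Library totals ran from 8.80 to 10.69 M counts in the 6 wild-type and knockout libraries, from 17.04 to 29.97 M in the 18 transgene libraries and from 18.59 to 22.26 M in the 18 libraries of the RBBP5 dataset. Suz12 transcript fell as labelled, from 279 ± 27.9 CPM in wild type to 57.8 ± 11.5 in the panel knockout (SD, n = 3) and from 370 ± 4.00 in R to 33.2 ± 1.43 in RS. Rbbp5 transcript stood at 54.4 ± 3.51 CPM in R with DMSO and 62.3 ± 0.861 with dTAG13, which says nothing of the degraded protein. Pou5f1, Nanog and Sox2, which define embryonic stem cells, were at 398 CPM or more in all 42 libraries. Summed markers of primitive endoderm, the extra-embryonic lineage, ranged from 228 to 267 CPM in wild type and from 1139 to 2081 in the panel knockout, with none of the 10 at 0. The other lists of cell types were also higher in the knockout: 2-cell markers went from between 0 and 0.104 CPM to between 19.2 and 21.5, germline markers from between 59 and 65.3 to between 208 and 257, and fibroblast markers from between 2.15 and 3.18 to between 16.2 and 23.2.

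In the contrast that defined it, Gm9805 had 0, 1 and 2 counts in the wild-type libraries and 12, 11 and 24 in the knockout libraries. Every knockout library was above every wild-type library. In bulk RNA, more cells that express the gene and more RNA per cell cannot be told apart. The mean level was 0.107 ± 0.114 CPM in wild type and 1.54 ± 0.726 CPM in the knockout (SD, n = 3), which is 9.80 times the wild-type mean plus 0.05. With 3 wild-type counts in all, the ratio of pooled counts was 14.9, with an exact 95% counting interval from 4.79 to 74.8 that covers counting error only. These values chose the gene and are a description. Without the wild-type library at 0 the ratio of the rule was 7.31, and without the knockout library at 24 counts it was 7.13, so no symbol passed in either case.

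**Figure D1:**
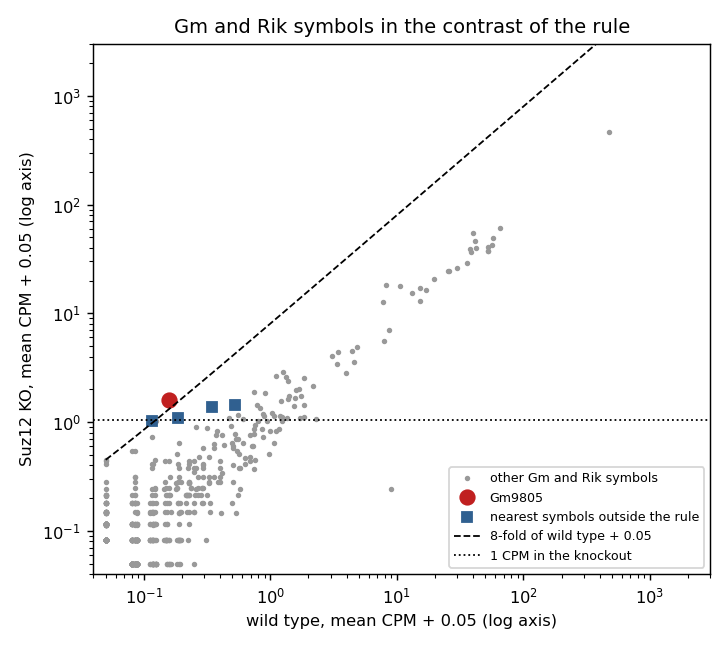
Mean CPM plus 0.05 of each Gm or Rik symbol with a count in wild type (x axis) and in the Suz12 knockout (y axis), both on log axes, with the 8-fold line dashed and the 1 CPM line dotted. Gm9805 (red) lies above both lines. The nearest symbols that missed a single limit (blue squares) lie along the 1 CPM line.

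Of the symbols at 1 CPM or more in the knockout, those nearest below the fold limit were Gm21060 at 5.65 times wild type plus 0.05, Gm5091 at 3.84 and Gm25835 at 2.63. Gm44, looked up after its values were seen, missed both limits, with 0.0758 CPM in wild type and 0.981 CPM in the knockout. The 1 symbol past the fold limit and below the CPM limit was 2510009E07Rik, with 0.976 CPM in the knockout and a ratio of 8.43. Over the 69 Gm and Rik symbols at 1 CPM or more in the knockout the median ratio was 1.02, against 1.11 over 992 clone-named symbols and 1.05 over 12296 others.

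The knockout line with SUZ12 added back had 15, 10 and 15 counts, or 0.771, 0.424 and 0.611 CPM. Each of these values was above the highest wild-type library, at 0.227 CPM. No test is given and nothing is read from this gap, since the rule chose the gene for low values in these wild-type libraries. The wild-type and SUZ12 libraries also differ in depth and in their column headings, which for wild type and knockout alone carry the words Ebdiff and day0. That difference and the genotype cannot be told apart.

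Among the 6 lines with a transgene Gm9805 moved over a narrow range, from a mean of 0.602 CPM with SUZ12 to 1.20 CPM with S12N:SD2*. S12N gave 14, 18 and 20 counts, or 0.655, 0.945 and 0.953 CPM. S12N:SUV2 gave 0.550, 0.734 and 0.846 CPM, and its dead form 1.01, 1.44 and 0.821. In S12N:SD2 the libraries stood at 0.509, 0.591 and 1.08 CPM, and in its dead form at 1.06, 1.56 and 0.991. Both active fusions thus had a lower mean than their dead forms, with overlapping libraries in each pair. Suz12 transcript was lower in them too, at 175 ± 15.1 CPM with S12N:SUV2 and 240 ± 27.3 with its dead form. With S12N:SD2 it was 118 ± 11.1 CPM, and 227 ± 32.5 with its dead form (SD, n = 3). The part of this difference was not tested. Ordered by mean level over all 8 panel groups, 6 of 7 neighbouring groups overlapped, and only the step from the SUZ12 line to wild type did not. The rule chose the gene on the wild-type and knockout libraries, so their places in this order are a description and nothing is read from that step.

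**Figure D2:**
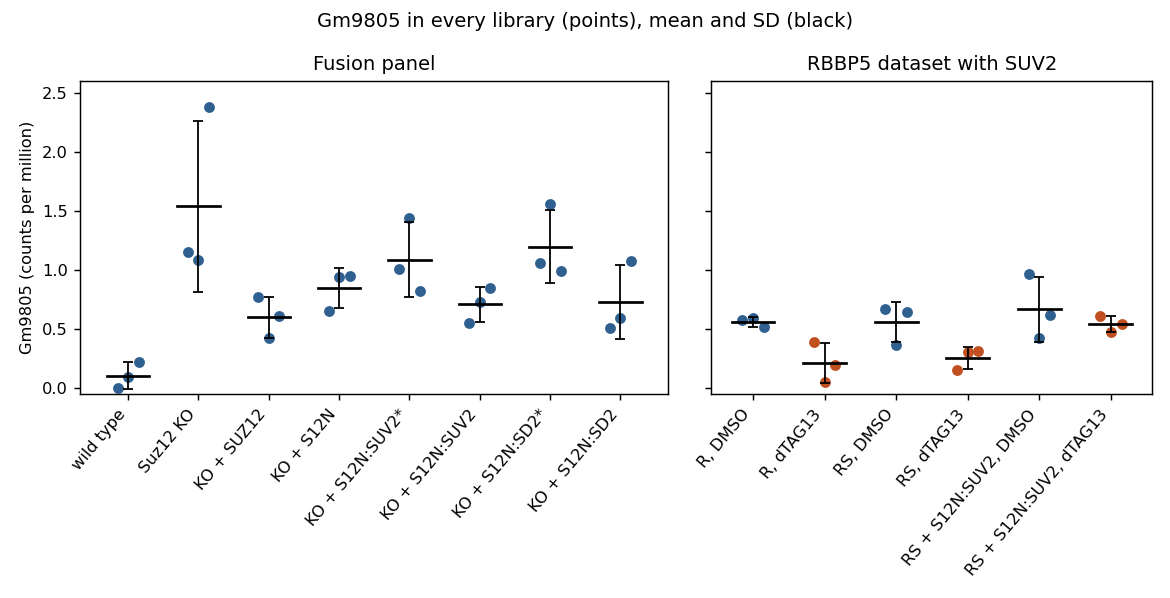
Gm9805 in CPM (y axis) in each of 42 libraries, as points, with the mean as a black bar and the SD as whiskers, for the fusion panel (left) and the RBBP5 dataset (right, dTAG13 in orange). Wild type lies between 0 and 0.227 CPM, the panel knockout between 1.09 and 2.38, and R and RS under DMSO between 0.365 and 0.671.

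None of the 6 comparisons among the transgene lines called Gm9805 at an adjusted p under 0.05 in edgeR's quasi-likelihood test, and DESeq2 called it in 0 of them. The unadjusted edgeR p was under 0.05 in 1. With SUZ12 against S12N its log2 fold change was −0.44 ± 0.35 (SE, n = 3 per group; edgeR adjusted p = 0.312), in a comparison that called 49.3% of the 16060 genes tested. For S12N:SUV2 against its dead form the log2 fold change was −0.57 ± 0.30 (edgeR adjusted p = 0.192), where 24.1% of genes were called. S12N:SD2 against its dead form gave −0.75 ± 0.32, with an unadjusted p of 0.0270 and an edgeR adjusted p of 0.0975, where 20.0% were called. Leaving out the S12N:SD2 library with 24 counts moved that value to −1.16 and the edgeR adjusted p to 0.0345.

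The dead fusions had means above S12N, by 0.37 ± 0.31 on the log2 scale for S12N:SUV2* (edgeR adjusted p = 0.421) and by 0.50 ± 0.31 for S12N:SD2* (edgeR adjusted p = 0.305). All 3 libraries of S12N:SD2* were above all 3 of S12N, in a comparison that called 14.7% of genes, and the S12N:SUV2* comparison called 22.6%. S12N:SUV2 and S12N:SD2 differed by 0.05 ± 0.34 (edgeR adjusted p = 0.914), with a 95% interval from −0.64 to 0.75, while 45.1% of all genes were called between these lines. The 95% intervals reached furthest in the SD2 pair, to −1.41.

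In the RBBP5 dataset, a Suz12 knockout in another line came with no detectable change of Gm9805. R under DMSO had 12, 12 and 10 counts, or 0.578, 0.597 and 0.518 CPM. RS under DMSO had 14, 8 and 12 counts, or 0.671, 0.365 and 0.645 CPM. Both groups summed to 34 counts and their libraries overlapped. The log2 fold change of RS over R was −0.14 ± 0.38 (edgeR adjusted p = 0.760), with a 95% interval from −0.91 to 0.64. The same comparison called 71.8% of 15757 genes, and primitive endoderm markers summed to between 165 and 184 CPM in R and between 1635 and 1773 in RS.

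Of the 256 other symbols that passed the numeric rule in the panel, 237 were tested in RS against R. The rest were not among the 15757 genes left by the filter on low counts. Of the 237, 231 were higher and 2 lower in RS, or 97.5% higher beside 36.9% of all genes tested. Their median log2 fold change was 3.59, also with the 8 symbols that had no count in R held at a bound of 3 counts over the group. All 33 clone-named symbols among them were higher. The median over all genes tested was 0.01. A symbol can pass the filter through its counts in RS alone, which favours higher values there, so these shares are a description only.

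**Figure D3:**
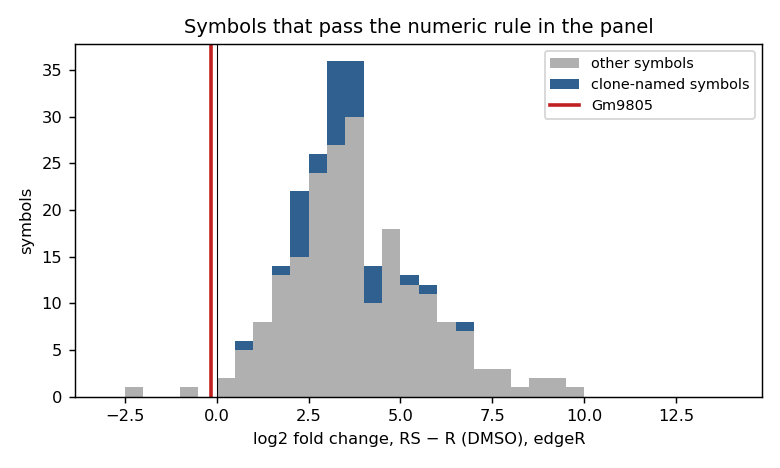
Histogram of the log2 fold change of RS over R under DMSO (x axis, as edgeR gives it with its default prior count) for the 237 symbols that are neither Gm nor Rik and pass the rule's numbers in the panel, clone-named symbols in blue. The red line marks Gm9805 at −0.14, its value without that prior count, below all but 2 of these symbols.

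S12N:SUV2 in RS left Gm9805 at 0.968, 0.422 and 0.618 CPM under DMSO, overlapping the RS libraries. Against RS the log2 fold change was 0.32 ± 0.37 (edgeR adjusted p = 0.513), where 48.7% of genes were called. Of the 237 other symbols, 185 were lower in this comparison and 10 higher, with a median of −1.11, and 25.4% of all genes tested were lower. The filter on low counts bears on this share too, so it is also a description only.

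Gm9805 fell under dTAG13 in R and, at the edge of the threshold, in RS. In R its counts went from 12, 12 and 10 under DMSO to 8, 1 and 4 under dTAG13, or 0.388, 0.0495 and 0.195 CPM. All dTAG13 libraries lay below all DMSO libraries. The log2 fold change was −1.43 ± 0.48 (edgeR adjusted p = 0.0121), in a comparison that called 51.6% of genes, 26.2% as lower. The pooled counts, 13 against 34, gave a ratio of 0.376 with an exact 95% counting interval from 0.182 to 0.730. Summed primitive endoderm markers went from between 165 and 184 CPM to between 206 and 236. Fibroblast markers went from between 2.34 and 2.59 CPM to at most 1.86. Of these 6 markers, 2 had no count under DMSO and 1 had none under dTAG13. Germline markers rose from between 45.9 and 53 CPM to between 59.4 and 60. The 2-cell markers were between 0.578 and 1.05 CPM under DMSO and between 0.879 and 1.93 under dTAG13. The part of these cell types in the change was not tested. Without the dTAG13 library that had 1 count, the change was −0.97 and the edgeR adjusted p was 0.0898.

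In RS the dTAG13 libraries had 3, 6 and 7 counts, or 0.152, 0.306 and 0.314 CPM, again below every DMSO library. This was a log2 fold change of −1.08 ± 0.45 (edgeR adjusted p = 0.0492), where 48.3% of genes were called, 25.1% as lower. This call sat at the threshold and was lost in DESeq2 (adjusted p = 0.103), without the filter on low counts (edgeR adjusted p = 0.0594) and on leaving out any of 5 of the 6 libraries, with edgeR adjusted p up to 0.181. Beside it, fibroblast markers went from between 13 and 15.7 CPM to between 8.07 and 9.03. Germline markers went from between 176 and 184 to between 142 and 150. The 2-cell markers rose from between 10.2 and 11.9 to between 12.5 and 12.8. Primitive endoderm markers were between 1635 and 1773 under DMSO and between 1729 and 1778 under dTAG13. The part of these cell types was not tested. With about as many of all genes called as not in both lines, these calls do not set Gm9805 apart.

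In RS with S12N:SUV2 the dTAG13 libraries had 12, 10 and 12 counts, or 0.608, 0.479 and 0.547 CPM, inside the range of its DMSO libraries. The log2 fold change was −0.28 ± 0.37 (edgeR adjusted p = 0.549), with 52.8% of genes called. Fibroblast markers went from between 8.55 and 10.4 CPM to between 3.79 and 4.36 in this line. Germline markers went from between 95.5 and 98.1 to between 87.4 and 89.7. Primitive endoderm markers were between 408 and 450 under DMSO and between 412 and 437 under dTAG13. The 2-cell markers were between 0.215 and 0.381 and between 0.365 and 0.658. The part of these cell types was not tested here either. The dTAG13 effect in this line minus that in RS was 0.80 ± 0.59 (edgeR adjusted p = 0.446), with a 95% interval from −0.41 to 2.00, and 10.7% of genes were called. Between RS and R the effect differed by 0.35 ± 0.68 (edgeR adjusted p = 0.779), where 19.6% were called. The widest gap, RS with S12N:SUV2 minus R, was compared after the values were seen and came to 1.15 ± 0.61 (edgeR adjusted p = 0.191), with a 95% interval that starts at −0.09, and 21.2% of genes were called. Gm9805 was called in none of these 3 differences, where edgeR's unadjusted p was under 0.05 in 0 and DESeq2 gave no adjusted p.

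**Figure D4:**
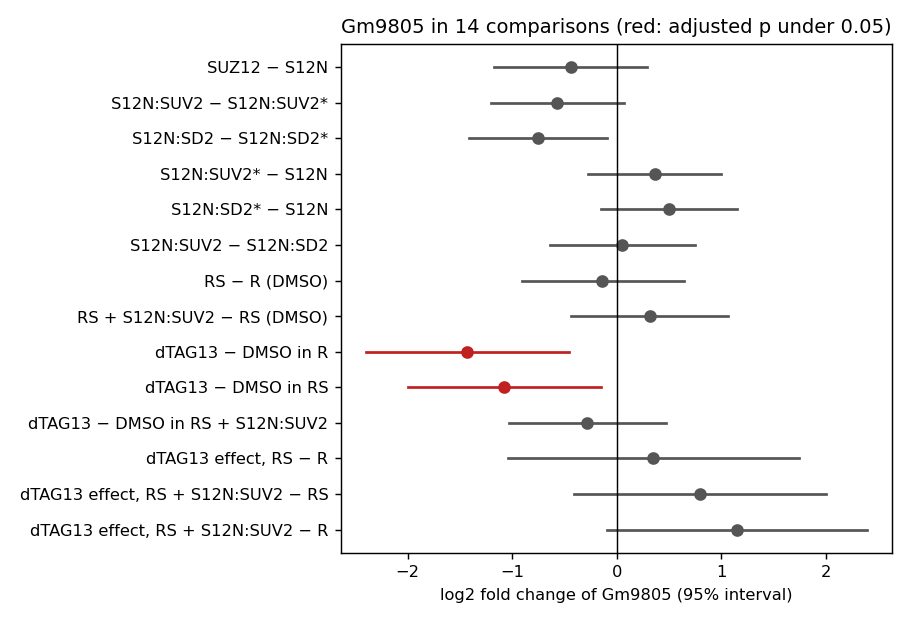
Log2 fold change of Gm9805 (x axis) with its 95% interval from edgeR in 14 comparisons, named on the y axis, red where the adjusted p was under 0.05. The 2 red lines are dTAG13 against DMSO in R and in RS, at −1.43 and −1.08.

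RefSeq places 15 genes within 300 kb of Gm9805, of which 6 are protein coding and 8 have a row in the count table. Among them are the zinc-finger genes Zfp758, Zfp946 and Zfp945 and Vmn2r genes, a family of vomeronasal pheromone receptors, all looked up after values were seen. Zfp945, 155.2 kb away, was the neighbour with the most counts, and it also fell under dTAG13, by 0.47 on the log2 scale in R, by 0.63 in RS and by 0.59 in RS with S12N:SUV2 (edgeR adjusted p = 2.02e-08, 1.29e-10 and 4.25e-11). Zfp946, Zfp758 and Gm16386 were not called under dTAG13 in any of these lines. The pseudogene Gm16386, 84.7 kb away, was at 1.03 ± 0.116 CPM in wild type and 1.08 ± 0.533 CPM in the knockout (SD, n = 3).

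Of 145 other Gm and Rik symbols tested in RS against R, 32 were higher and 26 lower, or 40% beside the 71.8% of all genes. Under dTAG13, 25 were higher and 10 lower in R, or 24.1% beside 51.6% of all genes, and 16 were higher and 13 lower in RS, or 20.0% beside 48.3%. These shares were not matched for expression level, and only 69 of 5309 Gm and Rik symbols reached 1 CPM in the panel knockout. A weaker response of the class cannot be read from them. Of 14 Gm genes listed as active at the 2-cell stage, 0 had a row under that symbol in the table.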

How the data were processed

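The deposited values are raw read counts per gene symbol. Per the submitters' processing notes, which give no roles, the tools were Trim Galore 0.4.5, STAR 2.4, Picard, HTSeq 0.9.1 and DESeq2, with mm10. Groups of the panel's columns were inferred from the wording of their headings, those of the RBBP5 dataset from sample titles. The labels speak of biological triplicates.

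The gene, the rule and the lists were chosen with earlier results of these data known. Named genes were the member, the nearest symbols that missed a single limit, Suz12 and Rbbp5, and others are said to have been chosen later. Each dataset was fitted with edgeR 4.0.16 in R 4.3.3 (TMM scaling, filterByExpr by group, quasi-likelihood F test, two-sided), leaving 16060 genes in the panel's 18 transgene libraries and 15757 in the RBBP5 dataset. Adjustment over all genes tested was by the Benjamini-Hochberg method, threshold 0.05. Wild type and knockout stayed out of the panel fit because the rule used them. SE was the unshrunk log2 fold change over the square root of F. DESeq2 1.42.0, RLE scaling, no filter, a replicate block and leaving out libraries were the alternatives. The panel's block and the comparison of dTAG13 effects between R and RS with S12N:SUV2 were added after the data were seen. The fit was tested on simulated data, with changes placed only in genes of higher counts than Gm9805, so that test does not cover its level.

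The other 51 count tables list 27179 Entrez identifiers, not that of Gm9805, so their 11 planned comparisons were not analysed here. Libraries of S12N:SUV2 and its dead form whose titles add KDM4i had no column in the tables that list Gm9805, and were not analysed either. The normalised tables were not used.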

Additional observations from a re-analysis of the deposited data

How the results depend on the processing

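With at most 39 counts in any library, depth limits every Gm9805 value. The number of symbols passing the rule was 0 at 16-fold, and between 0 and 3 on leaving out 1 wild-type or knockout library. The log2 fold change of dTAG13 in RS was −1.09 without the low-count filter and −1.09 in DESeq2, past the threshold in neither. On leaving out 1 library it ranged from −1.33 to −0.82 there and from −2.22 to −0.97 in R. The same ranges were −1.16 to −0.52 for S12N:SD2 against its dead form, −0.14 to 0.46 for S12N:SUV2 against S12N:SD2, −0.30 to 0.11 for RS against R, −0.03 to 0.55 for RS with S12N:SUV2 against RS, −0.53 to 0.05 for dTAG13 in RS with S12N:SUV2, and −0.11 to 1.14 for the dTAG13 effect in RS minus R. The cause was not tested. The other 6 comparisons kept direction in every alternative run, and none was called in any run that gave an adjusted p. Their sizes rest on single libraries. They ranged from −0.64 to −0.23 for SUZ12 against S12N, and from −0.73 to −0.32 for S12N:SUV2 against its dead form. Against S12N, they ranged from 0.12 to 0.53 for S12N:SUV2* and from 0.26 to 0.62 for S12N:SD2*. The dTAG13 effect in RS with S12N:SUV2 ranged from 0.54 to 1.14 minus that in RS, and from 0.68 to 1.94 minus that in R. DESeq2 gave no adjusted p for the 3 differences between dTAG13 effects.

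In the RBBP5 dataset the replicate numbers did not pair the libraries: of 45 correlations between same-numbered deviations, 0 were over 0.1. A replicate block changed 0 of 8 calls, with −1.44 for dTAG13 in R, −1.08 in RS and −0.13 for RS against R. In the panel, 11 of 45 such correlations of the numbers in the column headings were over 0.1. All 45 ran from −0.0864 to 0.356, with a median of 0.0203. Between S12N and S12N:SD2 they were 0.207, 0.319 and 0.24. Whether same-numbered panel libraries share more than a number was not tested. A replicate block on those numbers, added after the data were seen, changed 0 of 6 calls, with −0.75 for S12N:SD2 against its dead form and −0.57 for S12N:SUV2 against its own.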

Other observations

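The 4 nearest symbols that missed a single limit of the rule differed among themselves in libraries the rule did not use. 2510009E07Rik, which RefSeq lists as protein coding on chromosome 16 (GRCm38.p6), had 2, 0 and 0 counts with SUZ12 and 25, 21 and 10 with S12N, a log2 fold change of −4.87 ± 0.65 (SE, n = 3 per group; edgeR adjusted p = 3.12e-06). In R it had 1, 4 and 4 counts and in RS 57, 58 and 42, a rise of 3.99 ± 0.35 on the log2 scale (edgeR adjusted p = 9.44e-12). With S12N:SUV2 in RS it fell by 1.53 on that scale, to 14, 13 and 23 counts (edgeR adjusted p = 2.72e-06). S12N:SUV2 and its dead form did not differ detectably in the panel, with 16, 22 and 20 counts against 24, 24 and 21 (log2 fold change −0.11 ± 0.32, edgeR adjusted p = 0.845).

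Gm21060 and Gm5091 were called higher in RS than in R, by 1.49 ± 0.36 and 1.83 ± 0.46 on the log2 scale (edgeR adjusted p = 0.000481 and 0.000758). Gm25835 was not called (0.82 ± 0.44, edgeR adjusted p = 0.0942). Under dTAG13 in R, where Gm9805 was called at −1.43, the values of Gm21060, Gm25835 and 2510009E07Rik were 0.22, 0.37 and 0.59 and none was called (edgeR adjusted p = 0.714, 0.551 and 0.445).

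Gm5091, a long non-coding RNA on chromosome 17, had 2, 2 and 1 counts with S12N:SUV2, 19, 13 and 26 with the dead form, and 66, 72 and 33 with S12N:SD2. The log2 fold change of S12N:SUV2 over S12N:SD2 was −5.22 ± 0.57 (edgeR adjusted p = 4.27e-07). Under dTAG13 it rose in R, from 2, 6 and 3 counts to 18, 15 and 8 (1.85 ± 0.46, edgeR adjusted p = 0.00119). Gm44, chosen after its values were seen because it passed when the first or second knockout library was left out, had 27, 15 and 17 counts in RS under DMSO and 6, 7 and 4 under dTAG13 (log2 fold change −1.78 ± 0.43, edgeR adjusted p = 0.000901). In RS with S12N:SUV2 under DMSO it had 1, 0 and 1. Its log2 fold change of RS over R under DMSO was 2.94 ± 0.53 (edgeR adjusted p = 1.11e-05). In R, Gm44 had 5, 0 and 2 counts under DMSO and 2, 1 and 0 under dTAG13. That log2 fold change, −1.27 ± 1.08, was near the value of Gm9805 but was not called (edgeR adjusted p = 0.342).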
